A study of Mus musculus with 30 samples.

Results

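The question addressed here was whether the effect of losing Smchd1 on gene expression differs between primary and transformed mouse embryonic fibroblasts (MEFs). For each gene the difference between null and wildtype was taken in transformed MEFs, the same difference in primary MEFs was subtracted, and the result, called the interaction, was tested over 12 culture arrays out of the 30 arrays of the series. The groups were primary wildtype, primary null, transformed wildtype and transformed null, with 3 arrays each. Wildtype cells came from FVB/N mice, and null cells carried the MommeD1 point mutation of Smchd1 on that background. Transformed MEFs of either genotype had in addition p53 knockdown and overexpression of HRasv12 and were harvested 2 weeks afterwards, while primary MEFs were grown for 2 to 3 passages. The remaining 18 arrays, of tumours, entered no comparison. MEFs are a mixed culture grown from embryos, and expression was measured on Illumina bead arrays with 1 colour, as bulk RNA, so that fewer cells of a type and less RNA per cell cannot be told apart. The labels do not say whether the 3 replicates of a group came from separate embryos or cultures, so that p-values measure only the spread between these arrays, which may be technical.

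Each stage was run on a chip of its own. A chip effect shared by both genotypes leaves the interaction, but changes between stages and between chips cannot be told apart. Within a chip the genotypes alternated along the array sections, and the order was opposite on the other chip: wildtype lay on sections A, C and E in primary MEFs and on B, D and F in transformed MEFs. A difference between these sets of sections that both chips share therefore cannot be told apart from the interaction, and it was not tested.

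The Smchd1 protein, a distant relative of the SMC family of chromosome proteins, keeps the inactive X chromosome, some imprinted regions and some clustered gene families silent. Type I interferons act through transcription factors that include Stat2 and Irf9, which bind interferon-stimulated response elements and switch on antiviral effector genes, while interferon gamma is a strong inducer of GTPases and antigen presentation. The immediate early genes, such as Fos and Egr1, are switched on within minutes of growth factor or stress signalling through MAP kinases, a pathway that oncogenic Ras feeds. The protein p53 restrains the cell cycle, and its loss together with active Ras transforms fibroblasts.

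Values are log2 intensities, and differences are in log2 units with the SE of the fit (n = 3 arrays per group). Background was set at the 95th percentile of the probes that no array detected and lay between 6.16 and 6.24. Smchd1 was lower in null cells of both stages, as labelled. Its mean was 9.30 in primary wildtype, 7.04 in primary null, 9.15 in transformed wildtype and 7.08 in transformed null cells, and the interaction was 0.19 ± 0.13 (limma adjusted p = 0.488). Trp53, the gene of p53, had means of 10.68 and 10.37 in primary wildtype and null cells and of 7.35 and 7.32 in transformed ones. All 12 measured fibroblast markers were above background in every group, with a mean over the list between 11.18 and 11.49 on every array. The primary cultures also held RNA of other cell types: none of 14 keratinocyte and none of 15 macrophage markers was below background there, while 8 and 10 were in transformed wildtype and 6 and 9 in transformed null cells.

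The interaction passed the test for 361 of 13870 genes, or 2.6% (limma, Benjamini-Hochberg adjusted p under 0.05). It was positive, meaning that null cells rose more or fell less than wildtype cells on transformation, for 135 genes (0.973%) and negative for 226 (1.63%). An upward or downward shift below is one of the genotype difference and not of the level in null cells. The counts of called members in each list below stand beside these shares of all genes. The median interaction over all genes was 0.01. For 328 genes the genotype difference appeared on transformation: it was called in transformed MEFs and not in primary MEFs, with 208 shifted downward and 120 upward. For 12 genes it disappeared, for 6 it was called in both stages with opposite signs, for Pisd-ps3 it kept its sign and changed in size, and for 14 it was called in neither stage. For comparison, the genotype difference alone was called for 34 genes (0.245%) in primary MEFs, with 25 higher (0.18%) and 9 lower (0.0649%) in null cells, and for 1156 genes (8.33%) in transformed MEFs, with 535 higher (3.86%) and 621 lower (4.48%). A gene in the first class is not shown to lack a difference in primary MEFs.

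The wildtype and null arrays did not overlap in transformed MEFs for 351 of the 361 genes, in primary MEFs for 107 and in both stages for 97. Among all 13870 genes tested, the shares without overlap were 28.5%, 10.3% and 3.19%. The counts among the 361 partly follow from choosing genes by the interaction. At an unadjusted p under 0.05 in each stage, 89 called genes (0.642% of all genes) had opposite signs, 60 of them shifted downward. Of 178 further probes of 133 called genes, 169 had the same sign of interaction as the probe used and 9 the opposite sign. Among genes named below, another probe gave a value of the same sign and over 1.5 times smaller for Ifit3 (-1.11), Psmb8 (-0.72), C1s1 (-0.73), C4a (-0.26), Mup2 (-0.46), Klra1 (0.99) and Elavl2 (0.97), and further cases are given with the gene. The count of 361 fell to 41 when the tumour arrays were added to the fit and shared its estimate of the spread. Without transformed wildtype replicate 3 it was 180, without transformed wildtype replicate 2 207, without primary null replicate 1 216 and without primary wildtype replicate 2 239.

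**Figure D1:**
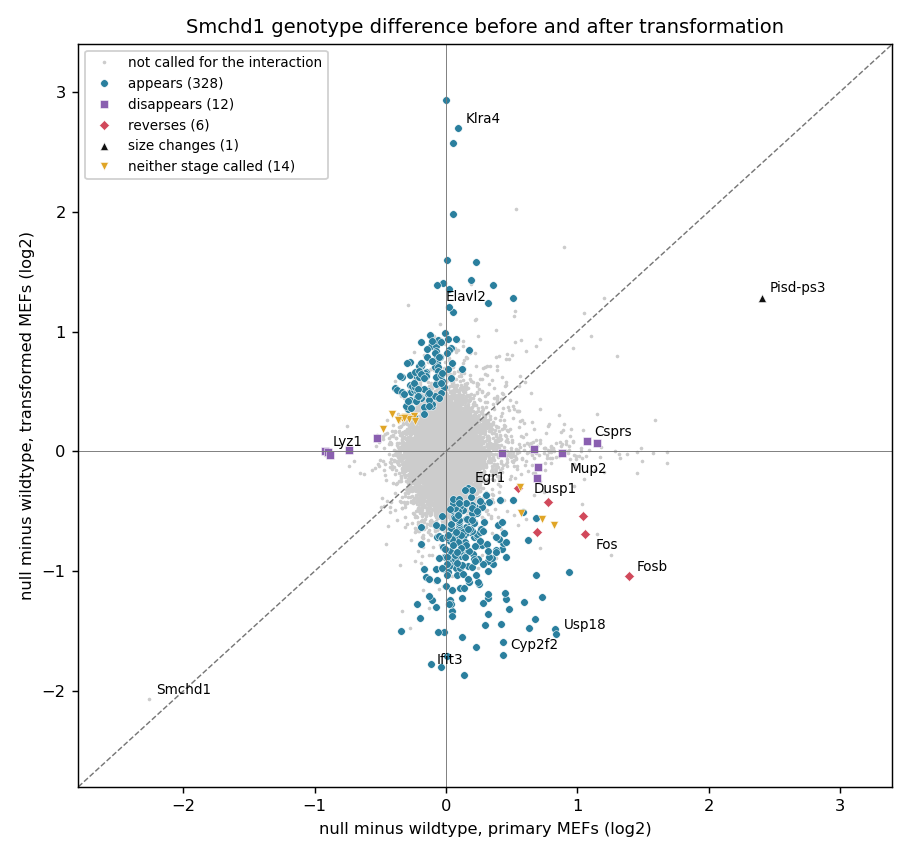
Each point is a gene, with the log2 difference of null against wildtype in primary MEFs on the horizontal axis and in transformed MEFs on the vertical axis; the dashed line marks equal differences. Of the 361 called genes, coloured by class, the 328 that appear on transformation spread along the vertical axis, and the 6 that reverse lie to the lower right.

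The 6 genes that reversed were all higher in null primary MEFs and lower in null transformed MEFs than in wildtype. Of these, 4 were immediate early genes, namely Fosb, Fos, Dusp1 and Egr1, and the others were Samd9l, an interferon-induced gene, and Cxcl1, a chemokine that attracts neutrophils. Fosb and Fos encode subunits of the transcription factor AP-1. Fosb read 8.08, 7.99 and 8.02 in primary wildtype, 8.87, 9.79 and 9.62 in primary null, 11.26, 11.36 and 11.53 in transformed wildtype and 10.39, 10.13 and 10.50 in transformed null cells. Its genotype difference went from 1.39 ± 0.19 to -1.04 ± 0.19, an interaction of -2.44 ± 0.27 (adjusted p = 0.000355). The groups overlapped in neither stage, and transformed null cells stayed above both primary groups. Fos read 11.84, 11.60 and 11.79 in primary wildtype, 12.76, 12.80 and 12.84 in primary null, 13.06, 13.40 and 13.49 in transformed wildtype and 12.69, 12.58 and 12.60 in transformed null cells. The null arrays of both stages thus lay close together, with the primary wildtype arrays below them and the transformed wildtype arrays above. The interaction was -1.75 ± 0.15 (adjusted p = 7.35e-05).

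Dusp1, a phosphatase that switches off MAP kinases, had a difference of 0.78 ± 0.11 in primary and -0.42 ± 0.11 in transformed MEFs (interaction -1.20 ± 0.15, adjusted p = 0.00101). Egr1, a zinc-finger transcription factor, had 0.55 ± 0.08 and -0.30 ± 0.08 (interaction -0.85 ± 0.11, adjusted p = 0.00117). Both were again highest in transformed wildtype cells. Cxcl1 read 10.82, 10.89 and 11.03 in primary wildtype, 11.68, 11.64 and 11.50 in primary null, 13.65, 13.44 and 13.58 in transformed wildtype and 12.84, 13.02 and 12.80 in transformed null cells. Its interaction was -1.37 ± 0.13 (adjusted p = 0.000162), with differences of nearly equal size and opposite sign, 0.70 ± 0.10 and -0.67 ± 0.10. Samd9l went from 1.04 ± 0.15 to -0.54 ± 0.15 (interaction -1.58 ± 0.21, adjusted p = 0.0015).

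Immediate early genes as a list held 10 of 22 measured members called downward, against 1.63% of all genes, and none upward, with a median interaction of -0.79. The median genotype difference was 0.35 in primary and -0.35 in transformed MEFs, and 20 members were above 0 in the first and 19 below 0 in the second. Besides Fosb, Fos, Dusp1 and Egr1, Atf3 was called (-0.96 ± 0.14), a transcription factor of stress responses with a difference of 0.12 ± 0.10 in primary and -0.84 ± 0.10 in transformed MEFs. The remaining called members, named after their values were seen, were Zfp36 (-1.10), which promotes decay of inflammatory mRNAs, Egr2 (-1.10), Klf2 (-1.05), Junb (-0.92) and Jund (-0.86). The mean level of the 22 genes lay between 9.82 and 9.85 on the primary wildtype arrays, between 10.13 and 10.32 on the primary null arrays, between 10.74 and 10.86 on the transformed wildtype arrays and between 10.38 and 10.53 on the transformed null arrays. No group overlapped another in this mean. With the tumours in the fit, 1 of the 10 calls was left. The call of Jund was lost under most other settings.

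**Figure D2:**
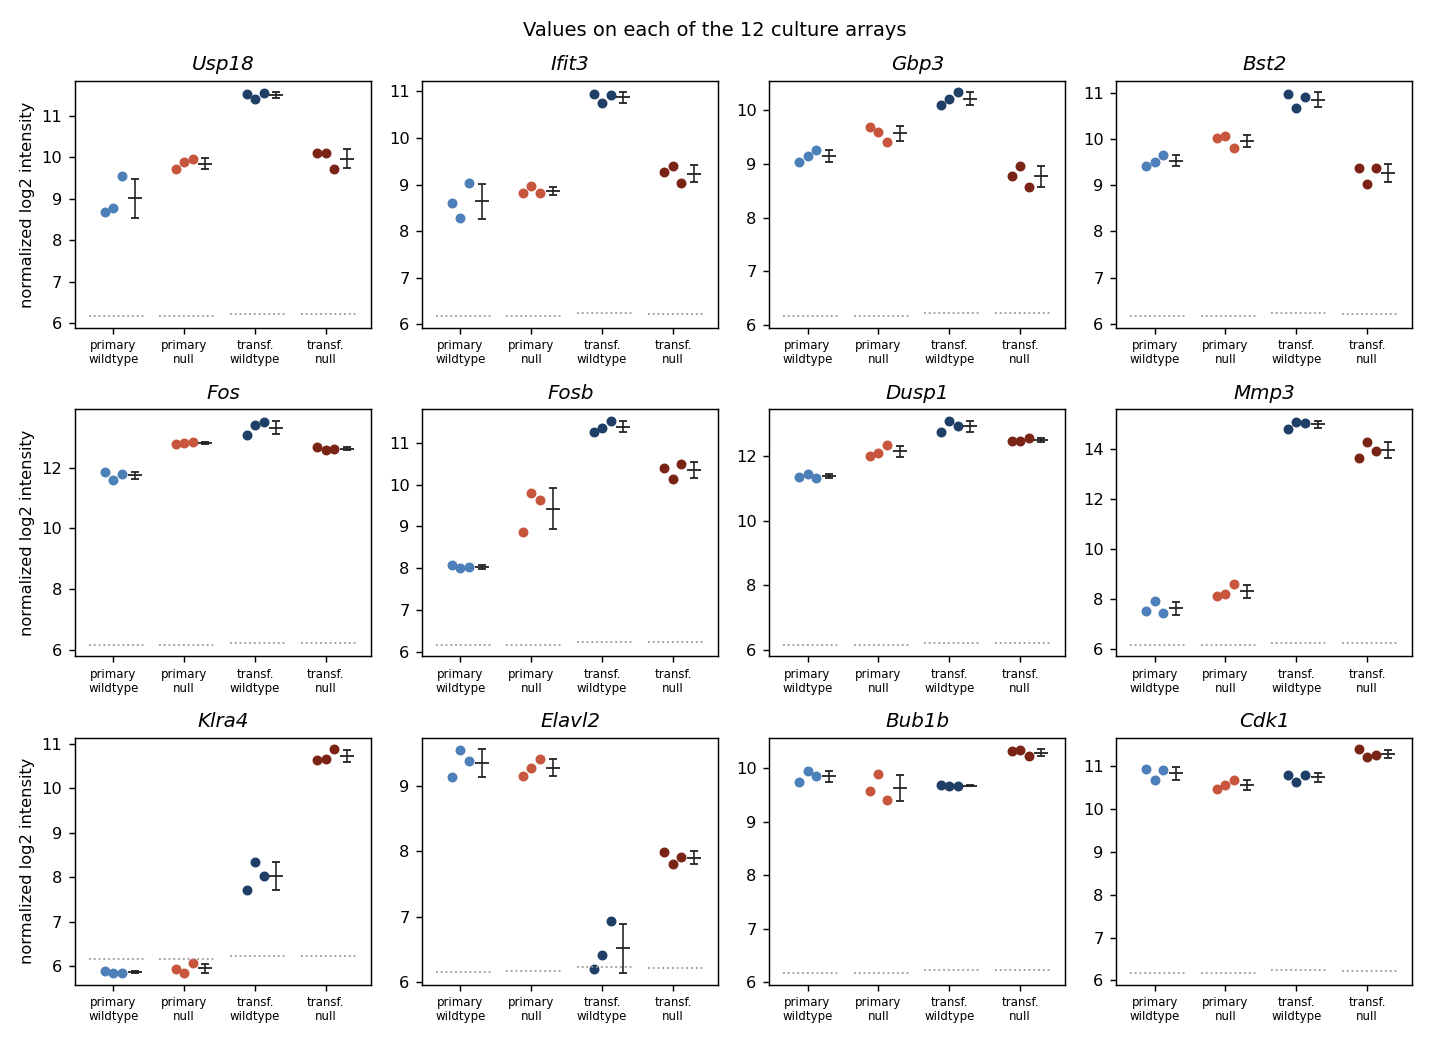
Normalized log2 intensity of 12 genes on each of the 12 culture arrays, with 1 point per array, a bar for the mean ± SD of 3 arrays and a dotted line at background. Transformed wildtype is the highest group for Usp18, Ifit3, Gbp3, Bst2, Fos, Fosb, Dusp1 and Mmp3, and transformed null is the highest for Klra4, Bub1b and Cdk1.

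Many genes of the interferon response shifted downward. Of 20 measured effectors 14 were called downward, against 1.63% of all genes, and none upward, and all 20 had a negative interaction, with a median of -1.24. Of 8 interferon-induced GTPases 7 were called downward (median -1.61), the exception being Irgm1 at 0.12, and of 6 transcription factors of the response 3 were called downward (median -0.64). The mean level of the effectors lay between 8.67 and 9.01 in primary wildtype, 9.05 and 9.24 in primary null, 9.73 and 9.80 in transformed wildtype and 8.82 and 8.96 in transformed null cells. The rise from primary to transformed cells had a median over the effectors of 0.83 in wildtype and of -0.18 in null cells. Only Samd9l was called in primary MEFs, while 16 effectors were called lower in null transformed MEFs, against 4.48% of all genes.

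Among the transcription factors, Irf9 read 9.95, 9.91 and 10.09 in primary wildtype, 10.20, 10.25 and 10.31 in primary null, 10.64, 10.84 and 10.75 in transformed wildtype and 10.13, 9.77 and 9.98 in transformed null cells. The genotypes overlapped in neither stage, and their order was swapped, although the primary difference was not called for any of these factors. The interaction of Irf9 was -1.05 ± 0.14 (limma adjusted p = 0.00163). Stat2, its partner in type I interferon signalling (-0.90 ± 0.19, adjusted p = 0.0222), shifted in the same direction, although it lost its call without primary wildtype replicate 1, transformed wildtype replicate 3 or transformed null replicate 3. Irf7, which amplifies the type I response, had -1.51 ± 0.22 (adjusted p = 0.00283). Irf3, which is activated after its synthesis rather than induced, had 0.26 ± 0.12 (adjusted p = 0.277), and Irf1, a factor that interferon gamma induces, had -0.38 ± 0.18 (adjusted p = 0.312).

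Usp18, a protease that removes Isg15 from proteins and dampens interferon signalling, had the largest interaction of the effectors. It read 8.69, 8.79 and 9.55 in primary wildtype, 9.71, 9.88 and 9.96 in primary null, 11.53, 11.42 and 11.55 in transformed wildtype and 10.11, 10.10 and 9.71 in transformed null cells. The primary arrays were lower in wildtype, without reaching the threshold (0.84 ± 0.19, adjusted p = 0.13), and the transformed arrays were lower in null cells (-1.53 ± 0.19, adjusted p = 0.000345). The interaction was -2.37 ± 0.26 (adjusted p = 0.000385), and a second Usp18 probe gave -2.54. Bst2, the tetherin that holds budding virus at the cell surface, read 9.42, 9.50 and 9.66 in primary wildtype, 10.02, 10.06 and 9.81 in primary null, 10.97, 10.67 and 10.91 in transformed wildtype and 9.37, 9.03 and 9.37 in transformed null cells. Its interaction was -2.03 ± 0.17 (adjusted p = 5.83e-05), and in null cells the transformed arrays lay below the primary ones.

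Ifit3, which belongs to a family that binds viral RNA, read 8.60, 8.27 and 9.04 in primary wildtype, 8.81, 8.97 and 8.82 in primary null, 10.95, 10.74 and 10.92 in transformed wildtype and 9.28, 9.40 and 9.03 in transformed null cells. Here the primary groups overlapped and the transformed groups did not (interaction -1.87 ± 0.23, adjusted p = 0.000794). Oasl2 and Oas1g, of the family of oligoadenylate synthetases that sense double-stranded RNA, had interactions of -2.10 ± 0.29 and -1.95 ± 0.21, and Mx2, a dynamin-like antiviral GTPase, had -1.75 ± 0.18. Parp14 had -1.34 ± 0.15 by the probe used and 0.06 by another probe, so that its shift depends on the probe. Named after their values were seen, Oas2 (-1.37), Lgals3bp (-1.35), Cmpk2 (-1.13), Rtp4 (-0.93), Ifi35 (-0.69) and Eif2ak2 (-0.63) were called downward as well. The calls of Ifi35 and Eif2ak2 were lost under most other settings.

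The interferon-induced GTPases attack the membrane around intracellular parasites and bacteria. Irgm2 read 9.68, 9.57 and 9.71 in primary wildtype, 9.98, 10.04 and 9.90 in primary null, 10.06, 10.08 and 10.16 in transformed wildtype and 8.77, 8.89 and 8.57 in transformed null cells, an interaction of -1.68 ± 0.13 (adjusted p = 3.89e-05). Gbp3, a guanylate-binding protein, read 9.03, 9.14 and 9.26 in primary wildtype, 9.69, 9.60 and 9.41 in primary null, 10.09, 10.21 and 10.33 in transformed wildtype and 8.77, 8.96 and 8.57 in transformed null cells (-1.87 ± 0.16, adjusted p = 7.35e-05). In both genes transformed null cells were the lowest group, and null lay above wildtype in primary cells. The genotype difference in primary MEFs was not called for any of these GTPases. Igtp (-1.68 ± 0.15) and Gbp2 (-1.27 ± 0.11) followed the same order of groups, and Ifi47 (-1.54) and Gbp6 (-1.34), named after their values were seen, were also called. Gm4951, which the list also holds, was below background in transformed null cells, where wildtype exceeded null by at least 1.98-fold (interaction -1.86 ± 0.18, adjusted p = 0.000141). GTPases of this family are similar in sequence, and a probe can read more than 1 member. Leaving out any single array left 7 of the GTPases, 12 to 15 effectors and 2 to 3 transcription factors called, and adding the tumours to the fit left 7, 4 and 2.

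The promoters of several of these genes hold the core of the interferon-stimulated response element, searched as GAAA, any 2 bases and GAAA again, on both strands with overlapping copies counted, in the RefSeq windows of GRCm38.p6 from 250 bases before to 50 bases after the start of each gene. The following stretches run 5′ to 3′ in the direction of the gene and end before or at its start. Capitals mark the core, read as TTTC, any 2 bases and TTTC where it lies on the opposite strand. They are shown only for genes named above whose windows were found to hold the core.
Ifit3 (chr19:34583343-34583446, + strand): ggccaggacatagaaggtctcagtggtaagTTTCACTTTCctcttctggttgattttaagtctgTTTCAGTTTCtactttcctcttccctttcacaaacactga
Bst2 (chr8:71537557-71537632, - strand): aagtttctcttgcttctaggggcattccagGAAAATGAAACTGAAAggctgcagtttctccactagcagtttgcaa
Oas1g (chr5:120887614-120887661, - strand): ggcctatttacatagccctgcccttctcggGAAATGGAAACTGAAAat
Gbp3 (chr3:142559969-142560043, + strand): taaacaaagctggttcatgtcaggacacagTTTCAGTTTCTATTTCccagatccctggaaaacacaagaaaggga
Gbp2 (chr3:142620574-142620643, + strand): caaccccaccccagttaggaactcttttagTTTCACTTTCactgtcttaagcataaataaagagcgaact
Igtp (chr11:58199492-58199555, + strand): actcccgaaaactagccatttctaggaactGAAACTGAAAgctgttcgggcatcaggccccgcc
Irgm2 (chr11:58214883-58214952, + strand): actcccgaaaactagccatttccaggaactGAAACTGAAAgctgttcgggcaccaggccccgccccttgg
Stat2 (chr10:128270248-128270315, + strand): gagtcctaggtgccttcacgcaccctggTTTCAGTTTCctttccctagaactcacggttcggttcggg

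The Igtp and Irgm2 stretches share 62 of the 64 bases over which both were compared from their first base. The Bst2, Oas1g and Gbp3 stretches hold 2 overlapping copies of the core, and that of Ifit3 holds 2 separate ones. The core occurs in 3.44% of all 32851 windows. It was found in the windows of 6 of 14 matched effectors and of 5 of 6 matched GTPases, but windows could be matched for only 14 of the 20 effectors and 6 of the 8 GTPases, so that a comparison of these shares with all windows is void. Of the 6 transcription factors, all matched, only 1 held the core (16.7%), namely Stat2, so that Irf9 and Irf7 did not. Among MHC class I presentation genes, with 13 of 15 matched, the core was found in 3 windows (23.1%). Among mitosis genes, with 17 of 20 matched, it was found in 1 (5.88%). A match is a run of letters and no measured binding.

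Of 7 sensors of viral nucleic acid, Ddx58, which encodes the RNA helicase RIG-I (-1.20 ± 0.24, adjusted p = 0.0181), and its relative Dhx58 (-1.02 ± 0.22, adjusted p = 0.0284) were called downward, and the median was -0.04. Without transformed wildtype replicate 3 neither call was left, and that of Dhx58 was lost under most other settings. Cgas and Sting1, the DNA sensing pair, had 0.24 ± 0.17 and 0.24 ± 0.25, and none of the 3 measured interferon ligands and receptors was called.

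Of 15 measured genes of MHC class I antigen presentation 7 were called downward, against 1.63% of all genes, and none upward. All 15 had a negative interaction, as did 6648 of all 13870 genes, and the median was -0.82. Tap1 and Tap2 encode the transporter that carries peptides to class I molecules, and Psmb8 and Psmb9 subunits of the immunoproteasome that cuts those peptides. Tap2 read 8.63, 8.53 and 8.68 in primary wildtype, 9.02, 9.17 and 8.96 in primary null, 10.32, 10.65 and 10.46 in transformed wildtype and 9.86, 9.74 and 9.77 in transformed null cells. Unlike in the GTPases, both transformed groups lay above both primary ones. The genotypes swapped their order between stages, although the primary difference of Tap2 was not called. The interaction was -1.13 ± 0.14 for Tap2 (adjusted p = 0.000794), -1.09 ± 0.18 for Tap1 (adjusted p = 0.00597), -1.13 ± 0.22 for Psmb8 (adjusted p = 0.0154) and, named after its values were seen, -1.15 ± 0.25 for Psmb9 (adjusted p = 0.0317). The class I gene H2-T23 had -1.01 ± 0.19 by the probe used, -0.86 by a second probe and 0.11 by another, and H2-D1, named after its values were seen, had -0.82 ± 0.16. The median change from primary to transformed cells over the list was 1.74 in wildtype and 0.74 in null cells. The call of Psmb9 was lost under most other settings. No call of this list was left with the tumours in the fit.

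Of 13 complement genes 4 were called downward, against 1.63% of all genes, with a median of -0.36. C2, a protease of the classical and lectin pathways, read 10.84, 11.09 and 11.12 in primary wildtype, 11.13, 11.07 and 11.22 in primary null, 10.73, 11.26 and 11.16 in transformed wildtype and 9.23, 9.70 and 9.58 in transformed null cells. Only the transformed null arrays stood apart (interaction -1.67 ± 0.21, adjusted p = 0.00086). C1s1, a protease of the first complement component, had -1.32 ± 0.19, Serping1, its inhibitor, had -1.27 ± 0.13, and C4a had -0.62 ± 0.15, a call that was lost under most other settings. C3, the central component, had -1.17 ± 0.44 (adjusted p = 0.192). Of 7 acute phase genes the serum amyloid gene Saa3 (-1.94 ± 0.31, adjusted p = 0.00497) and Lcn2, a protein that binds bacterial iron carriers (-1.63 ± 0.34, adjusted p = 0.0235), were called downward, with Lcn2 losing its call without any of 7 single arrays. Of 15 chemokine genes, Cxcl1 and Cxcl2 were called downward, the latter with -1.24 ± 0.22 by the probe used and -0.01 by another, while Ccl2 (-1.07 ± 0.31, adjusted p = 0.095) and Cxcl10 (-0.84 ± 0.25, adjusted p = 0.102) were not called.

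**Figure D3:**
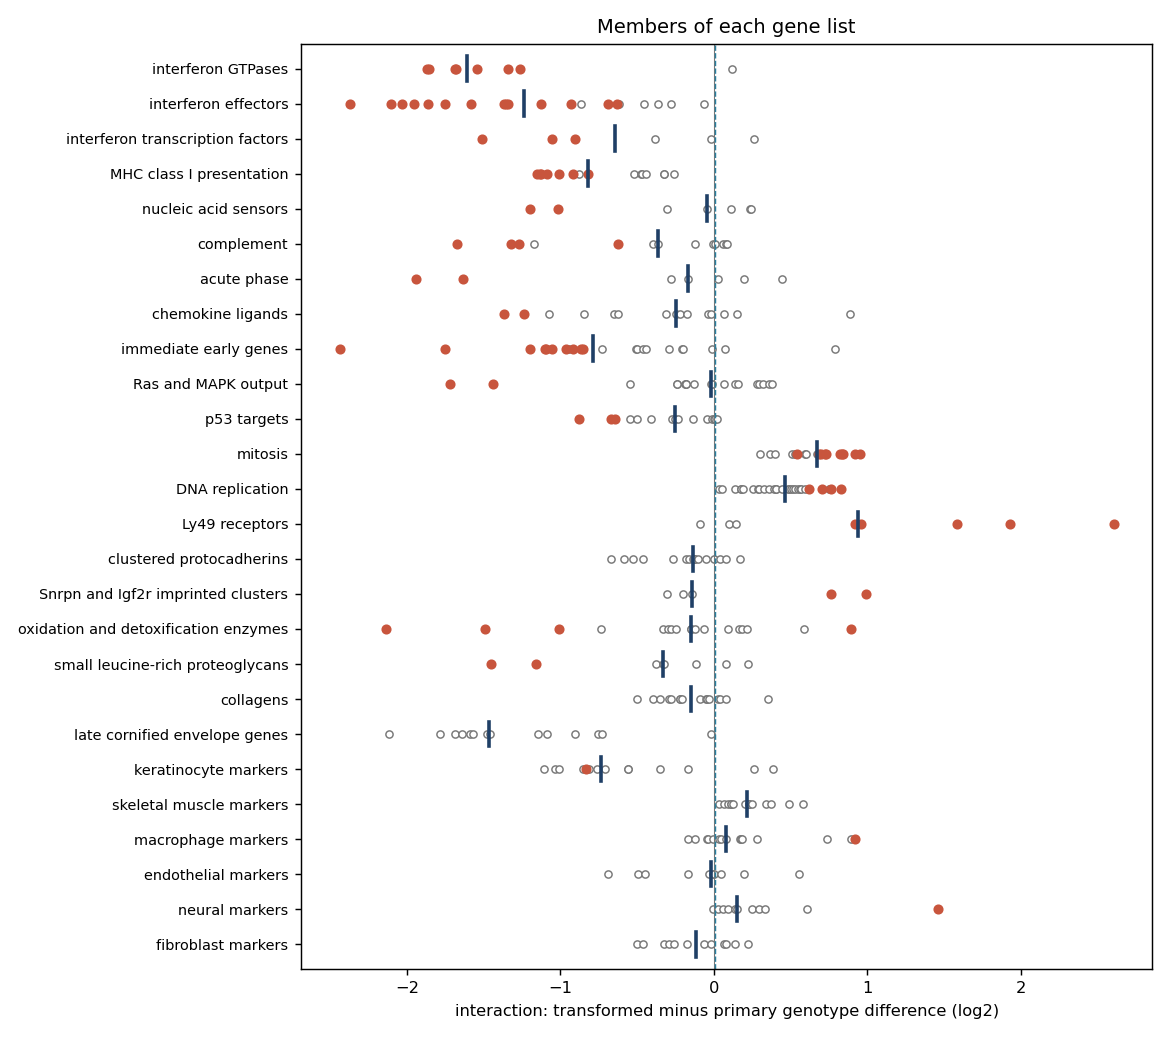
Interaction in log2 units for the measured members of the gene lists shown, with filled points for called genes, a thick bar for the list median and a dashed line for the median of all genes at 0.01. Interferon GTPases (-1.61) and effectors (-1.24) have the lowest medians among the lists with called members, and Ly49 receptors (0.94) and mitosis genes (0.67) the highest.

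Mmp3, or stromelysin, which degrades matrix proteins, read 7.52, 7.92 and 7.43 in primary wildtype, 8.12, 8.19 and 8.61 in primary null, 14.79, 15.06 and 15.03 in transformed wildtype and 13.62, 14.26 and 13.90 in transformed null cells. It was far higher in transformed cells of either genotype, and the genotypes did not overlap in either stage, although its primary difference was not called. Its interaction was -1.72 ± 0.25 (adjusted p = 0.00283), and 2 further probes gave -1.53 and -1.69. The collagenase Mmp13 had -1.44 ± 0.32 (adjusted p = 0.0338) by the probe used and -0.24 by another, and its call was lost under most other settings. The promoter windows of both hold an AP-1 site, searched as TGACTCA on both strands (read as TGAGTCA on the opposite strand), which occurs in 5.2% of all windows. Of the measured targets downstream of Ras and MAP kinases, the list that holds both genes, 13 had a matched window and 4 of these held the site. A part of Fos or Fosb in the shift of either gene was not tested. The stretches are shown in the same way, with the site in capitals.
Mmp3 (chr9:7445746-7445812, + strand): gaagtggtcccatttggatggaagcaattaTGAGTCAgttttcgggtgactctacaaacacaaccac
Mmp13 (chr9:7272449-7272513, + strand): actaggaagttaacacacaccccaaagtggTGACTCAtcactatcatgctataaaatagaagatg

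Mmp3 and Mmp13 were the called members out of 19 measured targets downstream of Ras and MAP kinases, and the median of that list was -0.02. Among those not called the cyclin gene Ccnd1 had 0.28 ± 0.12 and Hmga1 had 0.29 ± 0.13. Hras, the gene whose HRasv12 form was overexpressed, had an interaction of 0.33 ± 0.12 (adjusted p = 0.185).

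Lum, which encodes the collagen-binding proteoglycan lumican, read 14.13, 13.96 and 14.00 in primary wildtype, 14.04, 13.99 and 13.88 in primary null, 11.77, 12.05 and 12.15 in transformed wildtype and 10.74, 10.69 and 10.03 in transformed null cells. The primary groups overlapped, and transformed cells were lower in either genotype, most of all in null cells (interaction -1.45 ± 0.23, adjusted p = 0.00464). Podn, or podocan, of the same family, had -1.16 ± 0.23 (adjusted p = 0.0178). These were the called members out of 8 small leucine-rich proteoglycans (median -0.33), against 1.63% of all genes called downward. None of 16 collagen genes was called by limma (median -0.15). Angptl1, an angiopoietin-like secreted protein, had -1.77 ± 0.33 (adjusted p = 0.0148). The calls of Angptl1 and Podn were lost when no detection filter was applied.

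Of 18 enzymes of oxidation and detoxification 3 were called downward, against 1.63% of all genes, and 1 upward, against 0.973%. Adh1, an alcohol dehydrogenase that also oxidizes retinol, read 11.04, 11.46 and 11.04 in primary wildtype, 11.31, 11.03 and 11.15 in primary null, 8.38, 8.86 and 8.94 in transformed wildtype and 7.14, 7.35 and 7.17 in transformed null cells, an interaction of -1.49 ± 0.22 (adjusted p = 0.00283). The pattern of groups was that of Lum. Cyp2f2, a cytochrome P450 best known from the lung, had -2.13 ± 0.41 (adjusted p = 0.0167), and Cyp7b1, an oxysterol hydroxylase, had -1.01 ± 0.17 (adjusted p = 0.00597). Akr1cl, an aldo-keto reductase, shifted upward by 0.90 ± 0.20. It was below background in transformed cells of either genotype, and its call was lost under most other settings. The call of Cyp2f2 was lost when no detection filter was applied.

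Of 20 measured genes of mitosis 10 were called upward, against 0.973% of all genes, and none downward, all 20 were positive, and the median was 0.67. Of 30 genes of DNA replication 4 were called upward and none downward, all 30 were positive, and the median was 0.46. Bub1b, a kinase of the spindle checkpoint, read 9.74, 9.94 and 9.86 in primary wildtype, 9.58, 9.89 and 9.40 in primary null, 9.68, 9.66 and 9.66 in transformed wildtype and 10.31, 10.34 and 10.22 in transformed null cells. The transformed null arrays were above all 9 others, and the primary groups overlapped (interaction 0.84 ± 0.16, adjusted p = 0.0127). Kif2c, a kinesin that depolymerizes microtubules at centromeres, had 0.92 ± 0.13 (adjusted p = 0.00283), with a difference of -0.39 ± 0.09 in primary and 0.53 ± 0.09 in transformed MEFs. Cdk1, the kinase that drives entry into mitosis, had 0.83 ± 0.14 (adjusted p = 0.00842) by the probe used and 0.18 by another.

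Birc5, or survivin, had an interaction of 0.73 ± 0.15 and the spindle motor Kif11 of 0.70 ± 0.14. Named after their values were seen, Aurkb (0.84), Aurka (0.73), Plk1 (0.69) and Prc1 (0.54), which act in spindle assembly and cell division, were also called upward. Among replication genes, Pcna, the sliding clamp (0.83 ± 0.18), Rrm1, a subunit of ribonucleotide reductase (0.76 ± 0.14), Mcm3, of the replicative helicase (0.70 ± 0.17), and Mcm10 (0.62 ± 0.15) were called. The mean level of the mitosis genes lay between 10.09 and 10.15 in primary wildtype, 9.85 and 10.17 in primary null, 9.86 and 9.92 in transformed wildtype and 10.40 and 10.44 in transformed null cells. The transformed groups stood apart in this mean and the primary ones overlapped. The counts of calls depend on single arrays. Among the named genes Aurka, Aurkb, Plk1, Prc1, Pcna, Mcm3 and Mcm10 lost their calls under most other settings. Birc5 and Kif11 lost theirs without some single arrays. Mitosis calls ranged from 3 to 11 and replication calls from 1 to 8 when an array was left out, with 3 mitosis calls without transformed wildtype replicate 3 or transformed null replicate 3. With the tumours in the fit no call was left in either list, and with array section as a linear covariate 4 and 2 were left. With the replicate number as a block 4 and 1 were left within a stage and 3 and 1 within a genotype. The medians with an array left out stayed between 0.59 and 0.72 for mitosis and between 0.39 and 0.51 for replication.

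Genes that p53 switches on were measured for 15 members, with 3 called downward, against 1.63% of all genes, none upward and a median of -0.25. Fas, the death receptor, had -0.88 ± 0.11 (adjusted p = 0.00119), with 8.86, 8.68 and 8.74 in primary wildtype, 9.0, 9.01 and 9.15 in primary null, 8.44, 8.40 and 8.48 in transformed wildtype and 7.92, 7.81 and 7.82 in transformed null cells. Bbc3, the pro-apoptotic protein Puma (-0.65 ± 0.14, adjusted p = 0.0301), and Trp53inp1 (-0.67 ± 0.16, adjusted p = 0.0444) lost their calls under most other settings, and 2 further Bbc3 probes gave 0.34 and -0.17. Cdkn2a, whose products p16 and p19Arf restrain the cell cycle, had an interaction of -0.05 ± 0.13, with means of 6.55 and 6.48 in primary wildtype and null cells and of 13.75 and 13.62 in transformed ones.

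**Figure D4:**
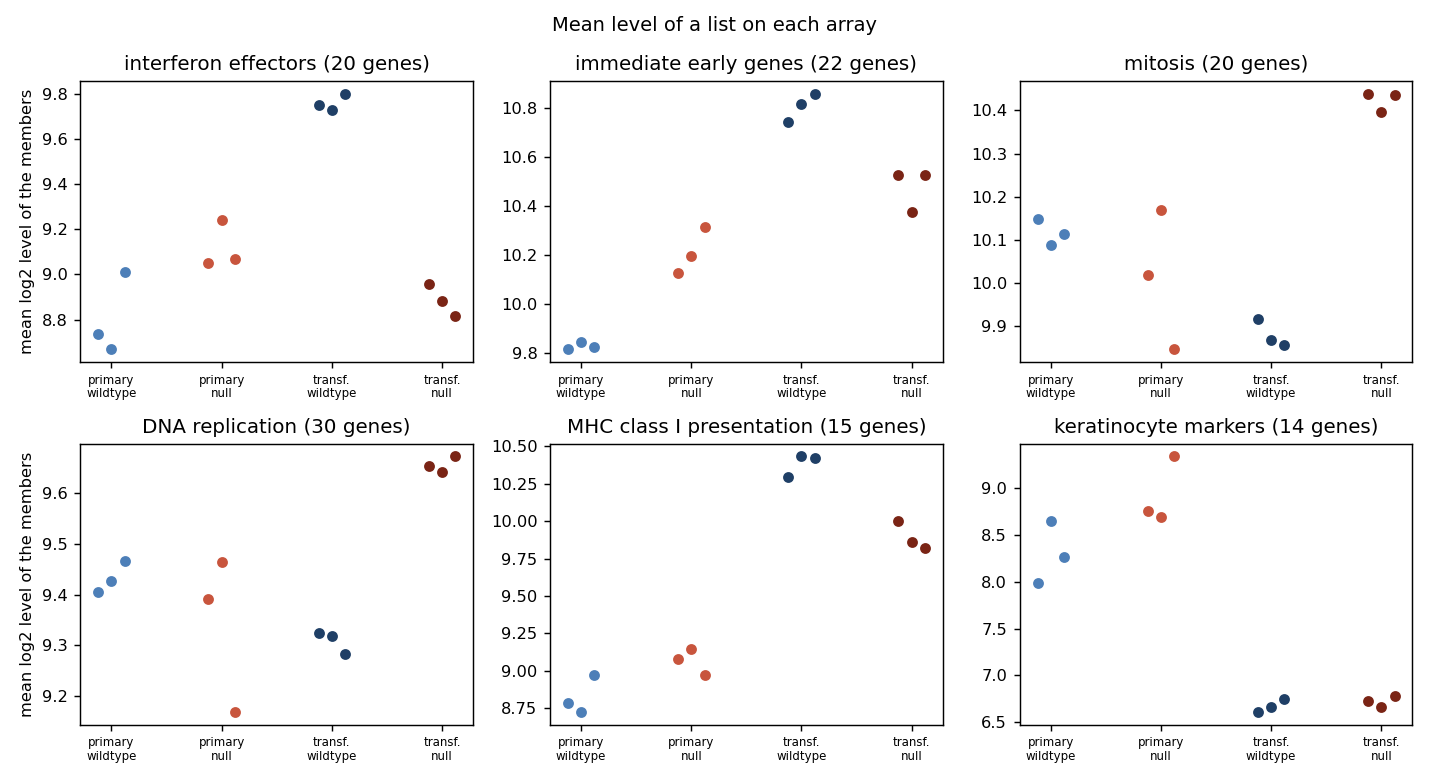
Mean log2 level of the measured members of 6 gene lists on each of the 12 culture arrays. Interferon effectors are highest in transformed wildtype (9.73 to 9.80), mitosis genes in transformed null (10.40 to 10.44), and keratinocyte markers are far lower in transformed than in primary MEFs.

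Large upward shifts were those of Klra genes, whose Ly49 receptors sit on natural killer cells, and of probes without a gene name. Of 8 measured Ly49 genes 5 were called upward, against 0.973% of all genes, with a median of 0.94 and of 0.83 with values raised to background. Klra4 read 5.88, 5.84 and 5.84 in primary wildtype, 5.94, 5.85 and 6.06 in primary null, 7.71, 8.35 and 8.02 in transformed wildtype and 10.63, 10.66 and 10.88 in transformed null cells. It was below background in primary cells of either genotype and above it in transformed cells of either genotype, and highest in transformed null cells. The difference of 2.70 ± 0.14 in transformed MEFs gave an interaction of 2.61 ± 0.19 (adjusted p = 2.42e-05). Klra16 had 1.93 ± 0.19 (adjusted p = 0.000157), and Klra1 was below background in all groups but transformed null, where it was at least 2.8-fold higher than in wildtype (interaction 1.58 ± 0.11, adjusted p = 1.21e-05). For Klra4 and Klra1 the primary difference was thus not measured. KLRA18 (0.96 ± 0.17) and KLRA20 (0.92 ± 0.21) kept the file's names, and the call of the latter was lost under most other settings.

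Ly49 genes are near-identical copies, so that a probe may read several, and the single members are uncertain. Of 2 measured lymphocyte and natural killer markers, neither was called: Nkg7 had an interaction of -0.05 ± 0.18 and the perforin gene Prf1 of 0.00 ± 0.17. The list's summed log2 level lay between 8.28 and 8.59 on the transformed wildtype arrays and between 8.35 and 8.56 on the transformed null arrays, and Nkg7 was below background in primary cells of either genotype. The unnamed LOC100040020 and LOC100038894 were below background in primary cells of either genotype, so that their primary difference was not measured. In transformed MEFs, where both were above background, null exceeded wildtype by 2.93 and 2.57 in log2 units, and the interaction with values raised to background was 2.93 and 2.57.

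Among other genes that shifted upward, Elavl2, an RNA-binding protein of neurons, read 9.13, 9.55 and 9.38 in primary wildtype, 9.15, 9.28 and 9.41 in primary null, 6.20, 6.41 and 6.94 in transformed wildtype and 8.0, 7.80 and 7.92 in transformed null cells. It was lower in transformed than in primary cells, and less so in null cells (interaction 1.46 ± 0.23, adjusted p = 0.00476). The other 10 of 11 measured neural markers were not called, and the list's median was 0.15. Spin2c, an X-linked gene of the spindlin family, read 7.94, 7.87 and 7.79 in primary wildtype, 7.90, 7.71 and 7.93 in primary null, 6.40, 6.55 and 6.48 in transformed wildtype and 7.97, 7.72 and 7.93 in transformed null cells. Here only the transformed wildtype arrays stood apart, with the null arrays of both stages overlapping (1.42 ± 0.13, adjusted p = 0.000139). Csf2ra, the alpha chain of the receptor for granulocyte-macrophage colony-stimulating factor, read 9.47, 9.19 and 9.18 in primary wildtype, 9.41, 9.49 and 9.50 in primary null, 6.75, 6.86 and 6.97 in transformed wildtype and 8.15, 8.17 and 8.56 in transformed null cells (1.24 ± 0.17, adjusted p = 0.00164).

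Epop, which binds the Polycomb complex PRC2 and elongin, had 1.35 ± 0.17 (adjusted p = 0.000847), with a difference of 0.23 ± 0.12 in primary and 1.58 ± 0.12 in transformed MEFs. Crisp1, a secreted protein of the epididymis, was above background in transformed null cells alone, at least 2.05-fold higher than in transformed wildtype (1.34 ± 0.16, adjusted p = 0.000794). Msln, or mesothelin, a cell surface protein, was likewise above background there alone, at least 2.06-fold higher (1.11 ± 0.20, adjusted p = 0.00974). Neither gene was above background in primary cells of either genotype, so that their primary difference was not measured. Crmp1, of the collapsin response mediator family (1.10 ± 0.22), Ankrd1, a muscle ankyrin repeat protein (1.10 ± 0.22), Gm5886 (1.18 ± 0.27) and the unnamed 2810405F04RIK (1.04 ± 0.23) were also called. The calls of Crmp1 and Ankrd1 were lost without transformed wildtype replicate 3, those of Gm5886 and 2810405F04RIK without primary wildtype replicate 1, and the last 3 of these genes lost theirs without other single arrays as well.

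Of the 12 genes whose difference disappeared, 7 were higher in null primary MEFs and 5 were lower. Mup2, a major urinary protein, a carrier of small volatile molecules, read 9.76, 9.83 and 9.67 in primary wildtype, 10.53, 10.61 and 10.78 in primary null, 5.89, 5.92 and 5.92 in transformed wildtype and 5.86, 5.90 and 5.91 in transformed null cells. Its interaction was -0.90 ± 0.12 (adjusted p = 0.00119). Lyz1, which encodes lysozyme, read 14.30, 13.96 and 14.17 in primary wildtype, 13.40, 13.38 and 12.89 in primary null and between 5.87 and 5.91 in transformed cells (0.92 ± 0.18, adjusted p = 0.0178). Mup2 and Lyz1 were below background in transformed cells of either genotype, so that no difference could be measured there. The same held for Mup1 (-0.65 ± 0.15), Cartpt, a neuropeptide precursor (0.85 ± 0.20), Akr1cl (0.90 ± 0.20), Csprs (-0.99 ± 0.16) and, named after its values were seen, Car3, a carbonic anhydrase (0.75 ± 0.18). Csprs was above background in primary null cells alone, at least 1.81-fold higher than in primary wildtype, and another Csprs probe gave -0.07. The calls of Mup1, Cartpt, Akr1cl and Car3 were lost under most other settings.

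Measured in all groups were H2-M3, a class I molecule that presents formylated peptides (-0.91 ± 0.15, adjusted p = 0.00718), Gga3, an adaptor of Golgi transport (0.64 ± 0.14, adjusted p = 0.0266), Cdh1, the E-cadherin of epithelial junctions (-0.84 ± 0.16, adjusted p = 0.0166) and the unnamed B930059J09RIK (-0.45 ± 0.11, adjusted p = 0.0444). Of these, Gga3 and B930059J09RIK are named after their values were seen. The call of B930059J09RIK was lost under most other settings, and that of Gga3 without some single arrays. H2-M3 read 8.04, 8.21 and 8.28 in primary wildtype, 8.92, 8.80 and 8.88 in primary null, 8.45, 8.67 and 8.71 in transformed wildtype and 8.57, 8.40 and 8.20 in transformed null cells. Its primary groups stood apart and its transformed groups overlapped. C130026I21Rik went from 1.15 ± 0.13 in primary to 0.07 ± 0.13 in transformed MEFs, where it was below background in wildtype (interaction -1.08 ± 0.19, adjusted p = 0.0092).

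Cdh1 belongs to the keratinocyte markers, of which 12 of 14 had a negative interaction (median -0.73) and only Cdh1 was called, a call that was lost without transformed wildtype replicate 3. The summed log2 level of these markers lay between 12.96 and 14.26 on the primary wildtype arrays, between 14.14 and 14.70 on the primary null arrays, and between 10.84 and 11.12 in transformed cells. None of the 14 late cornified envelope genes, which build the outer layer of skin, was called, although all had a negative interaction with a median of -1.47, such as Lce1a2 with -1.69 ± 0.42 (adjusted p = 0.052). Of these genes 8 were below background in transformed wildtype and 9 in transformed null cells. Macrophage markers, to which Lyz1 belongs, had a summed level between 15.40 and 15.77 in primary wildtype, 14.96 and 15.33 in primary null and 10.20 and 10.35 in transformed cells, with 1 of 15 called, Lyz1 itself. The part of these cells in the interaction of Cdh1, Lyz1 and the other genes that disappeared was not tested.

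The Snrpn and Igf2r clusters, both imprinted, gave 5 measured genes, of which 2 were called upward, against 0.973% of all genes. Ndn, or necdin, which restrains growth of neurons, read 13.58, 13.52 and 13.67 in primary wildtype, 14.15, 14.20 and 13.96 in primary null, 11.67, 11.44 and 11.90 in transformed wildtype and 12.99, 12.96 and 12.90 in transformed null cells. The difference kept its direction and went from 0.51 ± 0.11 (adjusted p = 0.123) to 1.28 ± 0.11 (interaction 0.77 ± 0.16, adjusted p = 0.0222), a call that was lost without primary wildtype replicate 3 or primary null replicate 3. Snurf, encoded on the Snrpn transcript, had 0.99 ± 0.18 (adjusted p = 0.0107) by the probe used, and 0.71 and 0.21 by other probes. Mkrn3, of the same cluster, had -0.14 ± 0.16 (adjusted p = 0.723), and Igf2r had -0.30 ± 0.14 (adjusted p = 0.283).

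None of 16 clustered protocadherin genes was called, the median was -0.13, and the lowest adjusted p was 0.0896, for Pcdhb3 (-0.67 ± 0.19). Pisd-ps3, a pseudogene of the phosphatidylserine decarboxylase gene Pisd, read 9.78, 9.59 and 9.50 in primary wildtype, 12.05, 12.10 and 11.94 in primary null, 10.13, 10.00 and 10.12 in transformed wildtype and 11.42, 11.39 and 11.29 in transformed null cells. It was higher in null cells in both stages, and the difference went from 2.41 ± 0.09 to 1.28 ± 0.09 (interaction -1.12 ± 0.13, adjusted p = 0.000469). Another probe of the pseudogene gave an interaction of -0.32 and Pisd itself had 0.40 ± 0.20, so that copies of this sequence cannot be assigned with certainty.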

How the data were processed

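The authors deposited log2 intensities for 30 arrays; per the submitters' processing notes BeadStudio, R 2.15.1 and limma 3.12.1 were used, while any background correction was not given in the sources used here. Sorted deposited values differed by at most 0.0369 between arrays of a stage and by up to 0.256 between stages. The deposited scanner tables gave probe names, detection p-values and intensities. Their 480 columns of array values match no sample label and were assigned to no sample, and served only to name probes and to count on how many arrays each was detected. The deposited log2 values were quantile normalized over the 12 culture arrays. Probes with a detection p-value under 0.01 on at least 3 of the 30 arrays were kept (20254), and each gene was its kept probe with the highest mean (13870 genes). A gene was below background in a group when all 3 arrays were under the percentile; a bound on its fold is then taken against the background percentile. Symbols were updated through a RefSeq table of GRCm38.p6 (27400 probes current, 8341 older, 191 shared by several genes, 9349 unmatched and kept as in the file).

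The interaction and both genotype differences came from limma 3.58.1 (R 4.3.3; lmFit and eBayes with default settings, 8 residual degrees of freedom) on the 12 culture arrays, with Benjamini-Hochberg adjustment over all 13870 genes and calls at an adjusted p under 0.05. The fit was run on data simulated from its own estimates with independent noise, which checks the code and not these arrays. The number of arrays limits the precision. Named were, among called genes whose genotypes did not overlap in at least 1 stage, the 15 largest interactions in each direction, up to 8 per class and up to 5 members of each of 30 gene lists by p; exceptions are marked where they stand. The members and lists were chosen with earlier results of these data known, and 1 gene was left out of the lists and is not reported here. Arrays of the same replicate number did not deviate together from their group means (correlations from -0.37 to 0.07 within a stage and from -0.02 to 0.06 across stages), so no pairing was used.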

Additional observations from a re-analysis of the deposited data

Results flagged for a closer look

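Each value here is an interaction in log2 units, listed because limma called it at an adjusted p under 0.05. All SEs and group values for the main genes are given above. For genes below background in both groups of a stage, the genotype difference of that stage was not measured, although the interaction was computed. Among genes that reversed, the values were Fosb (-2.44), Fos (-1.75), Dusp1 (-1.20), Egr1 (-0.85), Samd9l (-1.58) and Cxcl1 (-1.37). Atf3 (-0.96) was the other named immediate early gene. Interferon effectors were Usp18 (-2.37), Oasl2 (-2.10), Bst2 (-2.03), Oas1g (-1.95), Ifit3 (-1.87), Mx2 (-1.75) and Parp14 (-1.34). Interferon-induced GTPases were Gbp3 (-1.87), Gm4951 (-1.86), Igtp (-1.68), Irgm2 (-1.68) and Gbp2 (-1.27), and transcription factors and sensors of the response were Irf7 (-1.51), Irf9 (-1.05), Stat2 (-0.90), Ddx58 (-1.20) and Dhx58 (-1.02). Antigen presentation gave Psmb8 (-1.13), Tap2 (-1.13), Tap1 (-1.09), H2-T23 (-1.01) and H2-M3 (-0.91). Complement, acute phase and chemokine genes gave C2 (-1.67), C1s1 (-1.32), Serping1 (-1.27), C4a (-0.62), Saa3 (-1.94), Lcn2 (-1.63) and Cxcl2 (-1.24). Proteases, matrix, secreted and detoxifying proteins gave Mmp3 (-1.72), Mmp13 (-1.44), Lum (-1.45), Podn (-1.16), Angptl1 (-1.77), Cyp2f2 (-2.13), Adh1 (-1.49) and Cyp7b1 (-1.01). Genes downstream of p53 were Fas (-0.88), Trp53inp1 (-0.67) and Bbc3 (-0.65).

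Upward shifts were found for the cell division genes Kif2c (0.92), Bub1b (0.84), Cdk1 (0.83), Birc5 (0.73) and Kif11 (0.70) and for the replication genes Pcna (0.83), Rrm1 (0.76), Mcm3 (0.70) and Mcm10 (0.62). Ly49 genes gave Klra4 (2.61), Klra16 (1.93), Klra1 (1.58), KLRA18 (0.96) and KLRA20 (0.92). Other upward shifts were those of Elavl2 (1.46), Spin2c (1.42), Epop (1.35), Crisp1 (1.34), Csf2ra (1.24), Gm5886 (1.18), Msln (1.11), Ankrd1 (1.10), Crmp1 (1.10), Snurf (0.99) and Ndn (0.77). Genes whose difference disappeared on transformation were C130026I21Rik (-1.08), Csprs (-0.99), Mup2 (-0.90), Mup1 (-0.65) and Cdh1 (-0.84) downward and Lyz1 (0.92), Akr1cl (0.90) and Cartpt (0.85) upward. Pisd-ps3 (-1.12) kept its sign and changed in size. Probes that carry no current gene symbol gave LOC100040020 (2.93), LOC100038894 (2.52) and 2810405F04RIK (1.04) upward and LOC100048346 (-2.32), LOC100038882 (-2.07), LOC100047583 (-2.00) and LOC380706 (-1.79) downward.

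Among genes named after their values were seen, negative interactions were those of Mest (-1.71), Rtl3 (-1.66), Ifi47 (-1.54), Oas2 (-1.37), Lgals3bp (-1.35), Gbp6 (-1.34), Nfkbiz (-1.29), Itm2a (-1.28), Gpc3 (-1.23), Nfkbia (-1.20), Eln (-1.19), Psmb9 (-1.15), Cmpk2 (-1.13), Gas6 (-1.12), Zfp36 (-1.10), Egr2 (-1.10), Icam1 (-1.08), Klf2 (-1.05), Igf1 (-0.94), Rtp4 (-0.93), Ghr (-0.92), Egfr (-0.92), Junb (-0.92), Igf2 (-0.91), Jund (-0.86), H2-D1 (-0.82), Ifi35 (-0.69), Eif2ak2 (-0.63) and B930059J09RIK (-0.45). Positive ones were those of Cldn34c1 (0.93), Rragb (0.91), Aurkb (0.84), Kif4 (0.81), Car3 (0.75), Aurka (0.73), Plk1 (0.69), Gga3 (0.64) and Prc1 (0.54).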

How the results depend on the processing

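The interaction was recomputed under 14 other settings and without each of the 12 arrays in turn. Of the 126 called genes named in the text, 27 stayed called in every one of these fits apart from the requirement on size, which 24 of the 27 also met, 53 lost their call only when all 6 groups were fitted together, and none reversed its sign. The median interaction of all genes lay between -0.00 and 0.01 throughout. Leaving out an array gave 180 to 393 called genes, 51 to 160 of them upward and 129 to 233 downward, with 161 to 324 that appear, 8 to 20 that disappear, 3 to 11 that reverse and 55 to 137 with opposite signs at the looser threshold. The fit of all 6 groups, which adds the spread of the tumours, called 41 genes, all among the 361, with 5 upward, 36 downward, 37 that appear, 2 that disappear, 1 that reverses and 13 with opposite signs at the looser threshold. Without a detection filter, 89 genes were called upward, 212 appear and 3 reverse, over more probes tested. With values raised to background 22 genes disappear. With the trend and robust options of eBayes 11 genes reverse. With array section as a covariate, entered as a linear trend from A to F, 83 genes were called upward, out of 248 in all. Of the 248, 232 were shared with the 361. Such a trend does not stand for the alternating sets of sections, whose difference was not tested. Requiring in addition a log2 size of at least 1 left 122 genes, 20 upward and 102 downward, with 112 that appear, 1 that disappears and 45 of the looser class. The replicate numbers do not pair the arrays, and 6 of 12 arrays matched best with their own number in the other genotype. With the replicate number within a stage as a block, 239 genes were called (211 shared with the 361), 74 of them upward, with 7 that disappear and 3 that reverse. With the replicate number within a genotype as a block, 221 were called (203 shared), 68 of them upward. The cause of these changes was not tested beyond what the construction of each fit shows. A background correction of the scanner intensities with neqc had been planned and was not run, because their columns match no sample label. Precision is limited by 3 arrays per group and, for 29 called genes, by a signal below background in at least 1 group, 13 of them in both primary groups.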

Other observations

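Genes outside the lists also had negative interactions. They are named here after their values were seen. The imprinted growth factor gene Igf2 read 14.81, 14.57 and 14.79 in primary wildtype, 14.57, 14.66 and 14.72 in primary null, 15.05, 15.08 and 15.05 in transformed wildtype and 13.92, 14.13 and 14.19 in transformed null cells, so that the primary groups overlapped and the transformed ones did not (interaction -0.91 ± 0.13, limma adjusted p = 0.00295). Igf1 (-0.94 ± 0.19, adjusted p = 0.0223), the growth hormone receptor gene Ghr (-0.92 ± 0.14, adjusted p = 0.00295) and the epidermal growth factor receptor gene Egfr (-0.92 ± 0.21, adjusted p = 0.0352) shifted in the same direction. Further probes gave -1.02 and -0.20 for Igf1, -0.66 and -0.61 for Ghr and between -0.78 and -0.31 for Egfr. The imprinted gene Mest had -1.71 ± 0.38 (adjusted p = 0.0334), with transformed wildtype arrays spread from 9.36 to 10.83. Nfkbia, the inhibitor of NF-kB that NF-kB itself induces (-1.20 ± 0.14, adjusted p = 0.000589), its relative Nfkbiz (-1.29 ± 0.24, adjusted p = 0.0132) and the adhesion molecule gene Icam1 (-1.08 ± 0.19, adjusted p = 0.0087) had negative interactions as well. Another Nfkbia probe gave -0.49. The calls of Egfr and Mest were lost under most other settings, and that of Igf1 without some single arrays. Elastin, encoded by Eln, had -1.19 ± 0.20 (adjusted p = 0.00729), and Gas6, a ligand of receptor tyrosine kinases, had -1.12 ± 0.17 (adjusted p = 0.0038).

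On the X chromosome 378 genes were tested, of which 7 were called upward and 8 downward, beside 0.973% and 1.63% of all genes. Among those downward, Rtl3, a gene derived from a retrotransposon, read 11.85, 11.92 and 11.69 in primary wildtype, 11.90, 11.78 and 11.45 in primary null, 8.30, 8.73 and 7.99 in transformed wildtype and 6.30, 6.83 and 6.57 in transformed null cells (interaction -1.66 ± 0.26, adjusted p = 0.00396). The glypican gene Gpc3 (-1.23 ± 0.17, adjusted p = 0.00178) and Itm2a (-1.28 ± 0.21, adjusted p = 0.00634) shifted in the same direction. Upward on the X chromosome were, besides Spin2c, Cldn34c1 (0.93 ± 0.13, adjusted p = 0.00193), Rragb, a GTPase that signals amino acid supply (0.91 ± 0.19, adjusted p = 0.0224), and the kinesin gene Kif4 (0.81 ± 0.14, adjusted p = 0.00718). The call of Rragb was lost without some single arrays.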
